A study of Mus musculus with 14 samples.

Results

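Cholesterol synthesis and its sterol-sensing control were described here through a list of 29 genes: 18 enzymes of the pathway from acetyl-CoA to cholesterol and 11 genes of sterol transport, esterification and regulation. The list was taken by gene name, with no measured value in its rule although earlier results of these data were known, and each gene was represented by its single-gene probe with the highest mean. Of the 29 genes, 25 were measured, 17 of them synthesis enzymes, among 19938 genes tested. The names Acat2, Soat1, Soat2 and Nr1h2 matched no single-gene probe and were not analysed here.

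The series measured RNA from tumour-free liver tissue of female mice at 14 months of age on Affymetrix mouse gene arrays, 1 array per sample. The wild-type group held 3 C57BL/6 arrays, the Mdr2-KO group 5 arrays and the Mdr2-KO/IL6-KO group 6 arrays, the last carrying both deletions. Below, the Mdr2-KO/IL6-KO group is called the double knockout. Mdr2 (gene symbol Abcb4) is the canalicular pump that moves phosphatidylcholine into bile, and mice without it develop chronic cholangitis and, late in life, liver tumours. IL6 (Il6) is an inflammatory cytokine. The labels call only the controls C57BL/6 and give the knockouts by genotype, so strain and genotype cannot be told apart where the strain of the knockouts is not given. They do not say whether the arrays of a group come from separate mice, and p-values therefore measure the spread between these arrays. No IL6-KO group without the Mdr2 deletion was analysed here.

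Liver cells make cholesterol from acetyl-CoA through mevalonate, the isoprenoids, squalene and lanosterol. When sterols in the endoplasmic reticulum run low, the escort protein Scap carries the transcription factor SREBP-2 (Srebf2) to the Golgi, where it is cut free and enters the nucleus to switch on nearly the whole pathway. When sterols are plentiful, Insig proteins hold Scap back, and oxysterols activate the liver X receptors, which switch on genes of sterol export. In liver the pathway also feeds bile, into which cholesterol is secreted together with phosphatidylcholine.

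All levels are log2 values, so a difference of -1 is a halving of the signal, and no probe's level was set against another probe's. All 25 measured members lay above 5.48 on every array, a background level taken as the 95th percentile of 1027 olfactory receptor genes, and their lowest single value was 7.20. Abcb4 was at 10.36 ± 0.03 (SD, n = 3) in wild type, 9.01 ± 0.19 (n = 5) in Mdr2-KO, and 9.05 ± 0.20 (n = 6) with both deletions, while Il6 lay under background in each group (3.22, 3.07 and 3.48) and its probe checked nothing. None of 10 hepatocyte markers passed limma's test at an adjusted p of 0.05 in any of the 3 comparisons, and 0 had an unadjusted p under 0.05. Their mean level per array lay at 12.42 to 12.45 in wild type, 12.41 to 12.54 in Mdr2-KO and 12.36 to 12.54 in the double knockout. Markers of other cells moved: against wild type, 5 of 10 bile duct markers were higher in Mdr2-KO and 7 in the double knockout, with mean levels per array of 5.90 to 6.37, 6.58 to 7.43 and 6.69 to 7.52 in the 3 groups. Of 11 stellate cell and fibroblast markers 4 and 6 were higher and 1 lower in each (7.26 to 7.46, 7.43 to 8.26 and 7.58 to 8.32), and of 16 macrophage markers 6 and 7 were higher and 1 lower in each (8.10 to 8.33, 8.25 to 8.72 and 8.54 to 8.76). Of 7 lymphocyte markers 3 and 4 were lower (6.24 to 7.16, 5.60 to 6.13 and 5.66 to 6.26). Over all genes, limma called 12.1% lower and 8.89% higher in Mdr2-KO, and 5.33% and 6.96% in the double knockout. No marker of these cell lists was under background on every array. The part of such cells in the differences below was not tested, and in whole tissue fewer cells of a type and less RNA per cell cannot be told apart.

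SREBP-2 binds sterol regulatory elements beside NF-Y, a factor that reads the box CCAAT, so the promoters of the members were searched for these letters. RefSeq promoter windows (GRCm38.p6, 250 bases before to 50 after a gene's start) matched 24 of the 29 listed genes. The measured enzymes Fdps, Fdft1 and Sqle, which fell in both knockouts, had no window. On either strand, CCAAT stood in the windows of 14 of 14 measured synthesis enzymes with an entry and of 4 of 7 other measured members, against 41.1% of 27025 genes with a window. The SREBP element spelled TCACNCCAC was in 1 of the 14 enzymes, Hmgcs1, and in 1.44% of all genes. The palindromic E-box CACGTG was in 3 of 14 enzymes (Hsd17b7, Sc5d and Dhcr7), in 3 of the 7 others (Insig1, Scap and Abca1) and in 8.09% of all genes. In the stretches printed here no match overlaps another. A match describes letters and not a bound site, and a gene with several windows was counted if any of them held the letters.

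The stretches just upstream of Cyp51 (chr5:4104698-4104817, minus strand), Idi1 (chr13:8885486-8885605, plus strand), Msmo1 (chr8:64733579-64733698, minus strand) and Tm7sf2 (chr19:6067851-6067970, minus strand) are shown as examples of enzymes that fell and had a window. Against wild type, Cyp51, Idi1 and Msmo1 fell in both knockouts, and Tm7sf2 passed only in the double knockout. Each stretch ends 1 base before the gene's start and reads 5′ to 3′ along the gene's strand. Capitals mark CCAAT or its reverse complement.
Cyp51: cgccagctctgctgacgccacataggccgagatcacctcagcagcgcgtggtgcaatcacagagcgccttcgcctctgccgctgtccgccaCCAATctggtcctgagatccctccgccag
Idi1: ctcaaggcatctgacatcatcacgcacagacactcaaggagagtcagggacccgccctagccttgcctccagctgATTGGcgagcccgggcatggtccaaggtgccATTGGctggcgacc
Msmo1: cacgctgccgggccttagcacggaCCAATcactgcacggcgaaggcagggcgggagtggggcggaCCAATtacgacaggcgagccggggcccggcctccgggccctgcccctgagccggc
Tm7sf2: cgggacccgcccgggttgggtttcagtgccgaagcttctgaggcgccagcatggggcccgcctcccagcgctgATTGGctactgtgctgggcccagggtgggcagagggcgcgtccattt

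Hmgcs1 (chr13:119690158-119690277, plus strand, 193 to 74 bases upstream) carried both the CCAAT box and the SREBP element spelled TCACNCCAC, capitalised in that order. The level of Hmgcs1 passed no test in any comparison. Other spellings of the SREBP element were not searched, so stretches without this match cannot be said to lack the element. Srebf2 itself (chr15:82147076-82147195, plus strand, 193 to 74 bases upstream) held CCAAT in reverse.
Hmgcs1: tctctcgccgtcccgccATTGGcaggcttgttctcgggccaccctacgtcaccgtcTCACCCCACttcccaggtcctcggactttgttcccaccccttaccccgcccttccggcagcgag
Srebf2: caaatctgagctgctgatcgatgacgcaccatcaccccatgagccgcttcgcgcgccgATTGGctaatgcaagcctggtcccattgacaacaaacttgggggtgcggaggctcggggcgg

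The question of the comparisons was how the livers of mice without Mdr2 differed from wild type, and how the double knockout differed from Mdr2-KO. Against wild type, 9 of the 17 measured synthesis enzymes fell in Mdr2-KO and 8 did not pass, with a median log2 difference of -0.35. Over all 25 members 10 were lower and 1 was higher, a count read against 12.1% of all genes called lower and 8.89% called higher. The median member difference was -0.23, against -0.07 over all genes, and 23 of 25 members lay below 0, against 63.1% of all genes. Groups that did not overlap at all were found for 7 members lower and 1 higher, against 13.2% and 10.3% of all genes.

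In the double knockout, 12 of the 17 enzymes fell against wild type and 5 did not pass, with a median log2 difference of -0.41. Over the 25 members 14 were lower and 1 was higher, where 5.33% of all genes were called lower and 6.96% higher. The median over members was -0.37, against -0.02 over all genes, and 24 of 25 lay below 0, against 54.8% of all genes. The arrays did not overlap for 13 members lower and 1 higher, against 6.56% and 8.57% of all genes. After centring of the arrays on their medians, the split over all genes turned from 1062 lower and 1388 higher to 1573 lower and 1006 higher, while 15 members were lower and 1 was higher. The comparisons of the knockouts with wild type share the 3 wild-type arrays, so their lists are not independent of each other.

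Between the knockouts few members separated: in the double knockout against Mdr2-KO, 3 members were lower (Tm7sf2, Dhcr7 and Stard4), 1 was higher (Mylip) and 21 did not pass. Over all genes 3.72% were called lower and 5.04% higher. The median over the 25 members was -0.14 against 0.06 over all genes, and 22 of 25 lay below 0 against 34.3% of all genes. No overlap was seen for 2 members lower (Dhcr7 and Stard4) and 0 higher, against 2.94% and 4.40% of all genes. The split over all genes was 741 lower and 1005 higher as deposited, 852 and 675 after quantile normalization, and 1056 and 424 after centring. Members called were 3 lower and 0 higher under quantile normalization (7 had an unadjusted p under 0.05 as deposited) and 4 lower and 0 higher under centring.

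The arrays of a group did not carry the enzymes at equal levels. Taking each array's median over the 17 enzymes as a log2 difference from the wild-type mean, the wild-type arrays 1, 2 and 3 stood at 0.15, -0.21 and 0.08. The Mdr2-KO arrays 1 to 5 stood at -0.49, -0.44, -0.15, -0.29 and -0.20, and the double-knockout arrays 1 to 6 at -0.47, -0.56, -0.37, -0.34, -0.35 and -0.47. All 6 double-knockout arrays lay under the 3 wild-type arrays on this median, whereas Mdr2-KO arrays 3 and 5 lay above wild-type array 2.

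Wild-type array 2 was the lowest of its group for 16 of the 17 enzymes, and Mdr2-KO array 3 was the highest of its group for 10. Without these 2 arrays together, 14 members were lower in Mdr2-KO and 18 in the double knockout, each with 1 higher, and 2 were lower between the knockouts with 0 higher. Because the 2 arrays stood out in these same values, the direction of this shift was fixed beforehand, and it supports nothing. The other wild-type arrays weighed the opposite way: without array 1 the counts of lower members were 6 in Mdr2-KO and 10 in the double knockout, and without array 3 they were 5 and 9. Without wild-type array 2 alone they were 14 and 16. Lower members outnumbered higher ones in each of these settings. Between the knockouts, the count of lower members was 5 without double-knockout array 3 and 2 without Mdr2-KO array 3 or 5 or double-knockout array 2, 5 or 6.

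**Figure D1:**
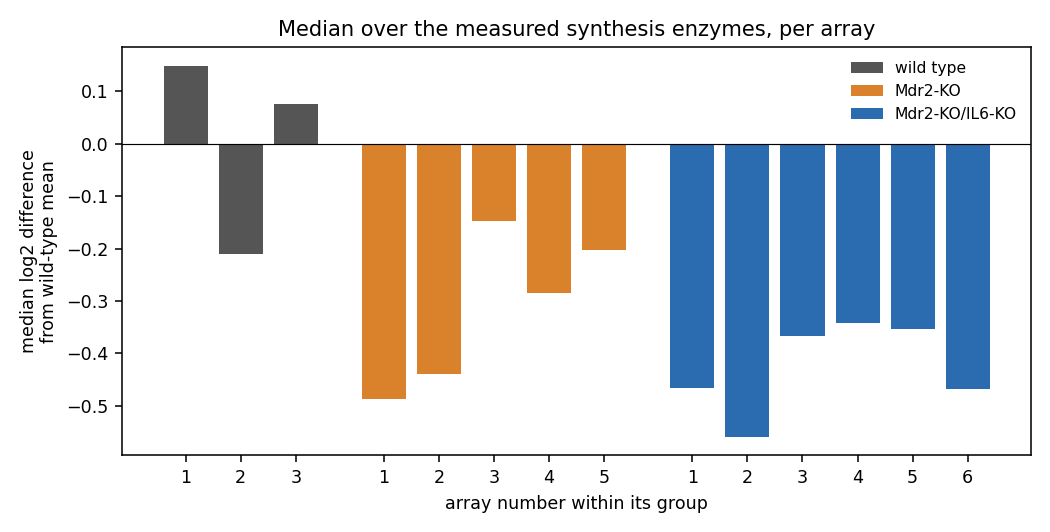
Bars give, for each of the 14 arrays, the median over the 17 measured synthesis enzymes of the log2 difference from the wild-type mean, and colours mark the 3 groups. The 6 double-knockout arrays lay between -0.56 and -0.34, under all wild-type arrays, and the 5 Mdr2-KO arrays between -0.49 and -0.15.

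The first 4 measured enzymes of the pathway, Hmgcs1, Mvk, Pmvk and Mvd, passed in no comparison. Hmgcs1, the cytosolic synthase that makes HMG-CoA, read 11.42, 10.76 and 11.21 on the wild-type arrays, 10.64, 10.89, 10.98, 11.18 and 11.11 in Mdr2-KO, and 10.53, 10.89 and 11.08 (lowest, median and highest) in the double knockout. Its groups overlapped, and the difference was -0.17 (95% interval -0.48 to 0.15, adjusted p = 0.419) in Mdr2-KO and -0.26 (-0.56 to 0.05, adjusted p = 0.285) in the double knockout. Both intervals still hold decreases as large as that of Lss further down the pathway.

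The kinases and the decarboxylase that follow had lower means in both knockouts without passing. Mvk, which phosphorylates mevalonate, stood at 8.32 ± 0.24 (SD, n = 3), 8.10 ± 0.22 (n = 5) and 8.03 ± 0.08 (n = 6) in wild type, Mdr2-KO and the double knockout. Pmvk, the next kinase, stood at 7.81 ± 0.35, 7.77 ± 0.18 and 7.43 ± 0.16, and Mvd, which forms isopentenyl diphosphate, at 7.96 ± 0.39, 7.69 ± 0.21 and 7.55 ± 0.23. For all 3 the wild-type spread was as wide as the difference or close to it, array 2 being the lowest wild-type array (8.05, 7.42 and 7.51).

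Without wild-type array 2, Mvk and Mvd passed in Mdr2-KO (adjusted p = 0.0491 and 0.0375) and Mvk, Pmvk and Mvd in the double knockout (0.0366, 0.00893 and 0.0175). Array quality weights also brought Mvk (0.0312) and Pmvk (0.0189) past the threshold there. As array 2 was the lowest wild-type array for these genes, its removal had to widen the differences and supports nothing. Without other single arrays the adjusted p reached 0.564 for Mvk and 0.64 for Mvd in Mdr2-KO. In the double knockout it reached 0.448 for Mvk, 0.363 for Pmvk and 0.385 for Mvd. Pmvk differed most between the knockouts among these 3, by -0.34 (95% interval -0.59 to -0.09, adjusted p = 0.0768). That adjusted p was 0.0365 without wild-type array 2, 0.0407 in a fit of the knockouts alone, and up to 0.175 without other single arrays.

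The 2 enzymes that turn isopentenyl diphosphate into isoprenoid chains fell in both knockouts. Idi1, the isomerase that makes dimethylallyl diphosphate, read 11.35, 11.25 and 11.46 in wild type, 10.55, 10.50, 10.65, 10.71 and 10.56 in Mdr2-KO, and 10.10, 10.34 and 10.90 (lowest, median and highest) in the double knockout. Every array of either knockout lay under the lowest wild-type array. Idi1 fell by 0.76 (SE 0.15, adjusted p = 0.00272), 40.9% lower, in Mdr2-KO and by 0.92 (SE 0.14, adjusted p = 0.000698), 47.2% lower, in the double knockout. Its second probe gave -0.69 and -0.88. Between the knockouts the difference was -0.16 (adjusted p = 0.378).

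Fdps, which joins isoprene units into farnesyl diphosphate, the branch point to sterols, prenylated proteins and ubiquinone, was at 10.64 ± 0.20 in wild type, 10.27 ± 0.13 in Mdr2-KO, and 10.28 ± 0.16 with both deletions. It fell by 0.37 (adjusted p = 0.0273) and 0.36 (adjusted p = 0.0364), and the ranges overlapped those of wild type in both comparisons, with wild-type array 2 at 10.41. The first call was lost without wild-type array 1 (0.112), wild-type array 3 (0.116) or Mdr2-KO array 1 (0.0608), and was at 0.0554 once the arrays were quantile-normalized. The second was lost without wild-type array 1 (0.168) or 3 (0.14), without double-knockout array 1 (0.0657), 2 (0.0686) or 6 (0.0592), after quantile normalization (0.0695) and in a fit of the 2 groups (0.0606).

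All 3 enzymes between farnesyl diphosphate and lanosterol fell in both knockouts. Sqle, the epoxidase that adds oxygen to squalene and a rate-limiting step, read 10.33, 10.04 and 10.21 in wild type and 9.24, 9.30, 10.07, 9.48 and 9.59 in Mdr2-KO. In the double knockout its lowest, median and highest values were 9.27, 9.50 and 9.58. Mdr2-KO array 3 alone reached the wild-type range, while all 6 double-knockout arrays lay under it. Sqle fell by 0.66 (SE 0.15, adjusted p = 0.00657), 36.7% lower, in Mdr2-KO and by 0.74 (SE 0.14, adjusted p = 0.00316), 40.2% lower, in the double knockout.

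Fdft1, squalene synthase, the first enzyme committed to sterols, read 11.35, 11.17 and 11.43 in wild type, 10.91, 10.91, 11.02, 11.13 and 11.13 in Mdr2-KO, and 10.87 to 11.06 in the double knockout. The groups did not overlap with wild type, although the gap to wild-type array 2 was small. Fdft1 fell by 0.30 (adjusted p = 0.0173) and 0.34 (adjusted p = 0.0092), its second probe giving -0.43 and -0.47. The call in Mdr2-KO was lost without wild-type array 1 (0.0575) or 3 (0.0927), and that in the double knockout without wild-type array 3 (0.0566).

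Lss, the cyclase that folds squalene epoxide into lanosterol, was at 9.42 ± 0.14 in wild type, 9.03 ± 0.24 in Mdr2-KO, and 8.90 ± 0.11 with both deletions, with no overlap between wild type and either knockout. It fell by 0.39 (adjusted p = 0.0284) and 0.52 (adjusted p = 0.00688). The first call was lost without wild-type array 1 (0.115) or Mdr2-KO array 1 (0.0576) or 2 (0.0507), and in a fit of these 2 groups alone (0.0679).

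**Figure D2:**
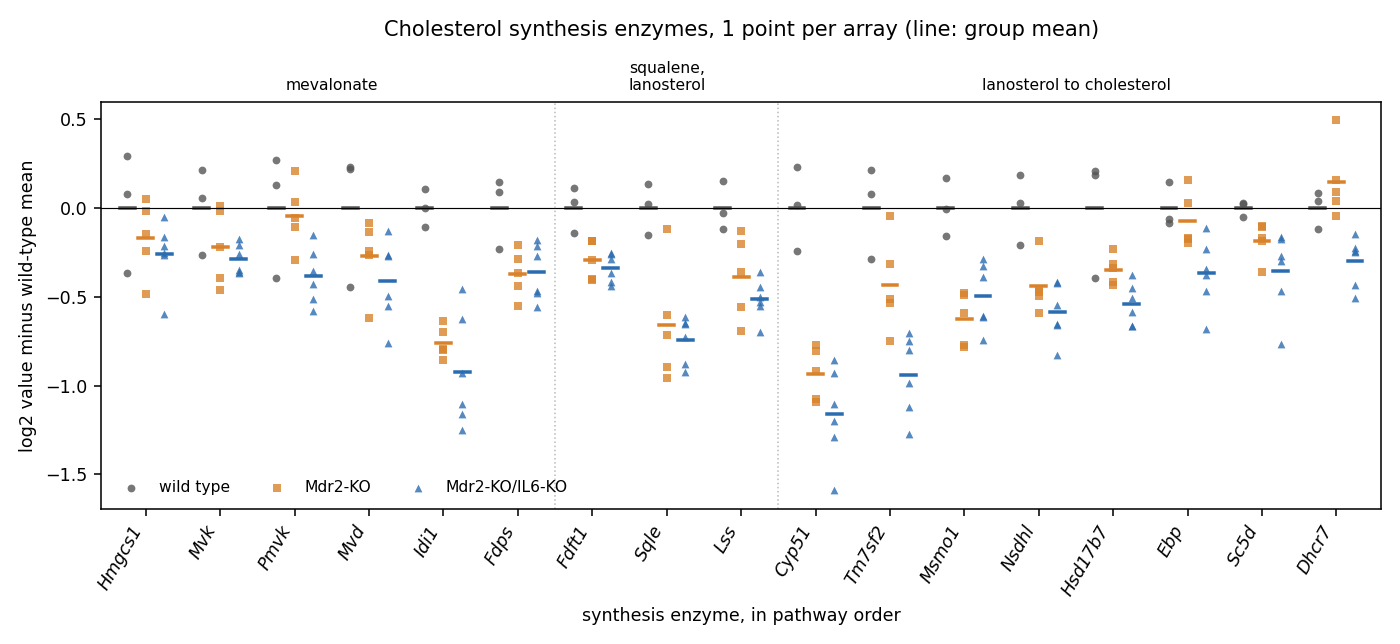
Log2 value minus the wild-type mean for the 17 measured synthesis enzymes in pathway order, with 1 point per array, a line at each group mean, and colour and marker for the group. Idi1, Cyp51 and Msmo1 show every knockout array under the lowest wild-type array, whereas Hmgcs1 overlaps in all 3 groups.

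Of the 8 measured enzymes that turn lanosterol into cholesterol, 4 fell in Mdr2-KO and 7 in the double knockout. Cyp51, the lanosterol demethylase, changed most. It read 10.87, 10.39 and 10.65 in wild type, 9.56, 9.54, 9.86, 9.83 and 9.72 in Mdr2-KO, and 9.05, 9.48 and 9.78 (lowest, median and highest) in the double knockout. All 11 knockout arrays lay more than 0.5 below the lowest wild-type array. Cyp51 fell by 0.93 (SE 0.15, 95% interval -1.24 to -0.62, adjusted p = 0.000644), 47.6% lower, in Mdr2-KO and by 1.16 (SE 0.14, -1.46 to -0.86, adjusted p = 0.000106), 55.3% lower, in the double knockout. Cyp51 lies on chromosome 5 with 21 protein-coding genes between it and Abcb4, so DNA that may have come along with the targeted Abcb4 allele and the loss of Abcb4 cannot be told apart for this gene.

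Tm7sf2, the sterol 14-reductase that acts right after Cyp51, was lowest in the double knockout. It read 10.30, 9.81 and 10.17 in wild type, 9.58, 9.56, 10.05, 9.34 and 9.78 in Mdr2-KO, and 8.82, 9.20 and 9.39 (lowest, median and highest) in the double knockout. Mdr2-KO overlapped with both other groups, whereas all 6 double-knockout arrays lay under wild type. The difference was -0.43 (95% interval -0.77 to -0.09, adjusted p = 0.0645) in Mdr2-KO, and Tm7sf2 fell by 0.94 (SE 0.15, adjusted p = 0.00106), 47.8% lower, in the double knockout. Against Mdr2-KO, Tm7sf2 was 29.6% lower in the double knockout (-0.51, SE 0.13, adjusted p = 0.0295).

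The Tm7sf2 call between the knockouts was lost without Mdr2-KO array 1 (0.0564), 3 (0.0733) or 5 (0.0512) and without double-knockout array 2 (0.0564), 5 (0.0564) or 6 (0.056). In Mdr2-KO against wild type, Tm7sf2 passed without wild-type array 2 (0.0296), without Mdr2-KO array 3 (0.0243) and with array quality weights (0.0233). Those arrays were the lowest and the highest of their groups, so both removals had to widen the difference. Without other single arrays the adjusted p reached 0.221.

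Msmo1 and Nsdhl, which with a further dehydrogenase strip methyl groups from the sterol ring, both fell. Msmo1, the methyl oxidase, read 11.50, 11.18 and 11.33 in wild type, 10.57, 10.55, 10.85, 10.75 and 10.86 in Mdr2-KO, and 10.59, 10.84 and 11.05 (lowest, median and highest) in the double knockout. No knockout array reached the lowest wild-type array. Msmo1 fell by 0.62 (SE 0.11, adjusted p = 0.00198), 35.1% lower, and by 0.49 (SE 0.11, adjusted p = 0.00839), 29.0% lower, and the second call was lost without wild-type array 1 (0.0574).

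Nsdhl, the decarboxylating dehydrogenase, was at 10.74 ± 0.20, 10.30 ± 0.15 and 10.15 ± 0.16, and fell by 0.44 (adjusted p = 0.0129, but 0.0814 without wild-type array 3) and 0.59 (adjusted p = 0.00226). Hsd17b7, the keto-reductase that completes demethylation, was at 10.25 ± 0.34, 9.90 ± 0.08 and 9.71 ± 0.12, with wild-type array 2 at 9.85 inside the range of both knockouts. It fell by 0.54 (adjusted p = 0.00532) in the double knockout. Its call in Mdr2-KO (-0.35, adjusted p = 0.0462) was weak: it was lost after quantile normalization (0.0913), in a fit of the 2 groups (0.0945), without wild-type array 1 (0.185) or 3 (0.237), without any single Mdr2-KO array (0.0533 to 0.0867), and without double-knockout array 2, 3, 4, 5 or 6 (0.05 to 0.0563).

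Ebp and Sc5d, the isomerase and desaturase that set the ring double bonds, passed in the double knockout against wild type, with small differences. Ebp was at 10.39 ± 0.13, 10.31 ± 0.16 and 10.02 ± 0.20, and fell by 0.37 (adjusted p = 0.043). Sc5d was at 11.77 ± 0.04, 11.59 ± 0.11 and 11.42 ± 0.23, and fell by 0.36 (adjusted p = 0.0454). All 6 double-knockout arrays lay under the wild-type arrays for both genes, and for Sc5d so did all 5 Mdr2-KO arrays. In Mdr2-KO the differences from wild type were -0.07 and -0.19 (adjusted p = 0.676 and 0.242), and between the knockouts they were -0.30 and -0.17 (adjusted p = 0.0634 and 0.236).

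The calls of Ebp and Sc5d did not survive most changes of setting. For Ebp the adjusted p was 0.0717 after quantile normalization, 0.0626 in a fit of the 2 groups, and 0.188, 0.0644 and 0.0806 without wild-type array 1, 2 and 3. It was 0.0517, 0.0512 and 0.0501 without Mdr2-KO array 1, 2 and 5, and 0.0683, 0.0631, 0.0716 and 0.0592 without double-knockout array 2, 4, 5 and 6. For Sc5d it was 0.0546 after quantile normalization, 0.087 in a fit of the 2 groups, 0.0529 with array quality weights, and 0.13, 0.0807 and 0.127 without wild-type array 1, 2 and 3. It was 0.058, 0.0539 and 0.0566 without Mdr2-KO array 2, 4 and 5, and 0.0584, 0.0503 and 0.0724 without double-knockout array 1, 5 and 6.

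Dhcr7, the reductase of the final step, separated the knockouts from each other. It read 9.64, 9.48 and 9.68 in wild type, 9.64, 9.75, 10.09, 9.55 and 9.69 in Mdr2-KO, and 9.09, 9.35 and 9.45 (lowest, median and highest) in the double knockout. Wild type and Mdr2-KO overlapped, and the double-knockout arrays lay under both. Against wild type the difference was 0.15 (95% interval -0.09 to 0.38, adjusted p = 0.347) in Mdr2-KO and -0.30 (adjusted p = 0.0832) in the double knockout. Over fits without 1 array the latter adjusted p ran from 0.0302, without Mdr2-KO array 3, to 0.245. In the double knockout Dhcr7 fell by 0.45 against Mdr2-KO (SE 0.09, 95% interval -0.64 to -0.25, adjusted p = 0.0101), 26.6% lower, and this call held without any single array.

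Stard4, a cytosolic carrier that moves cholesterol between membranes and is itself an SREBP-2 target, was likewise lowest in the double knockout. It read 9.06, 8.74 and 8.84 in wild type, 8.64, 8.95, 8.83, 8.90 and 8.92 in Mdr2-KO, and 8.27, 8.41 and 8.63 (lowest, median and highest) in the double knockout. The double-knockout arrays lay under all arrays of the other groups. Stard4 fell by 0.42 against Mdr2-KO (SE 0.08, adjusted p = 0.00643), 25.0% lower, and by 0.45 against wild type (SE 0.09, adjusted p = 0.00462), 26.8% lower, while Mdr2-KO differed from wild type by -0.03 (95% interval -0.24 to 0.17, adjusted p = 0.813). Both calls held without any single array.

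**Figure D3:**
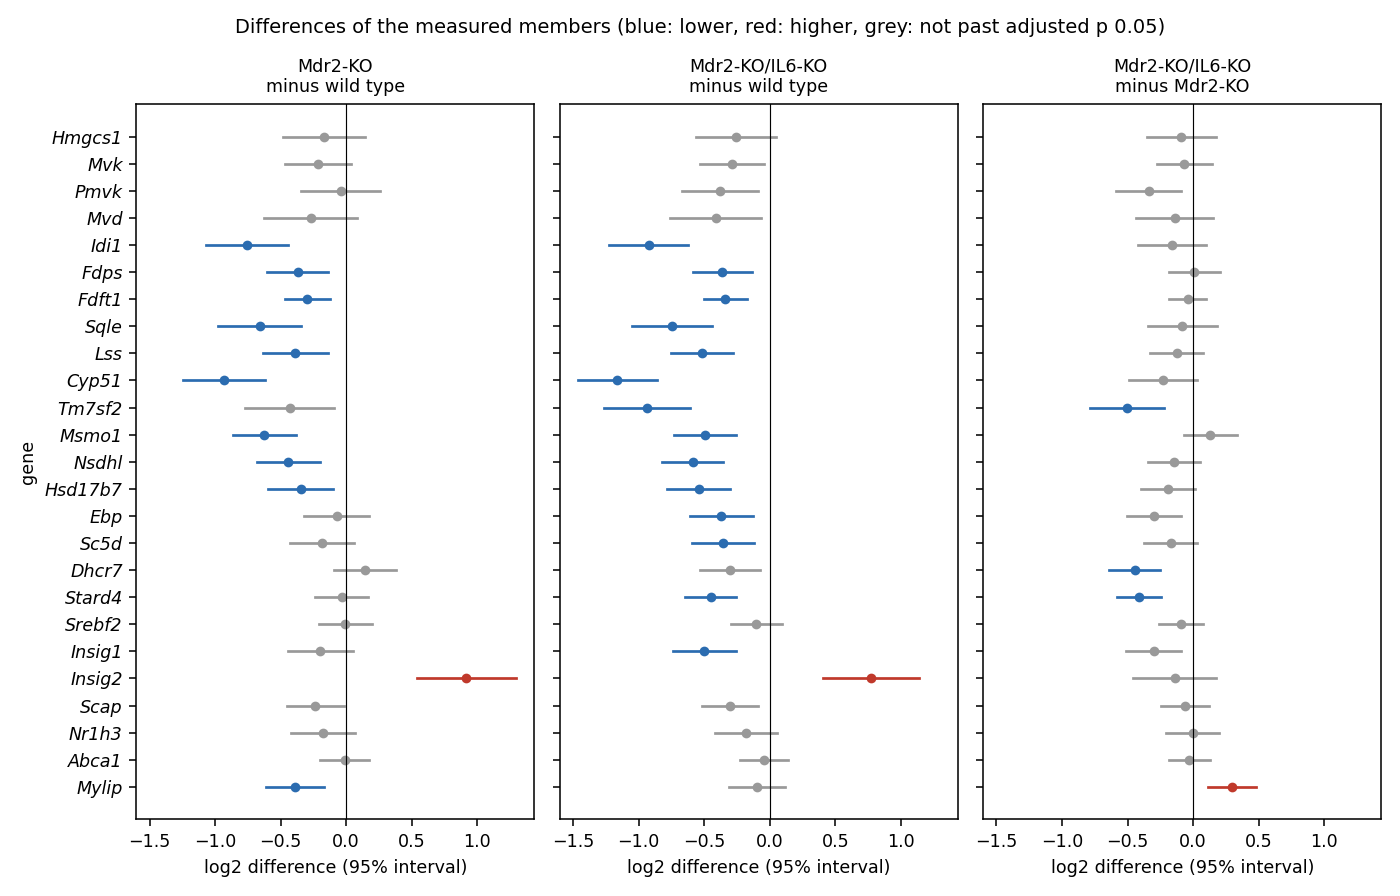
Log2 difference of the measured members in the 3 comparisons, with 95% confidence intervals from limma in blue (lower) or red (higher) where the adjusted p was under 0.05 and in grey elsewhere. Most points lie left of 0 in both comparisons with wild type, Insig2 lies right of 0 at 0.92 and 0.77, and Dhcr7, Stard4, Tm7sf2 and Mylip are called between the knockouts.

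The sensor and switch of the pathway moved unevenly. Srebf2, which encodes SREBP-2, read 8.92, 8.59 and 9.07 in wild type, 8.73, 8.79, 8.92, 8.86 and 8.97 in Mdr2-KO, and 8.64, 8.75 and 8.86 (lowest, median and highest) in the double knockout. The groups overlapped throughout, with differences of -0.01 (95% interval -0.21 to 0.19, adjusted p = 0.955) and -0.10 (-0.30 to 0.09, adjusted p = 0.557). A change of the Srebf2 transcript as large as that of Cyp51 lies outside these intervals. SREBP-2 is regulated mainly by cleavage of the protein, which arrays do not measure.

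Scap, the escort of SREBP-2, was at 9.25 ± 0.28 in wild type, 9.02 ± 0.12 in Mdr2-KO, and 8.95 ± 0.08 with both deletions, and did not pass (-0.23, adjusted p = 0.112, and -0.30, adjusted p = 0.0641). Wild-type array 2 was at 8.97, and without it the adjusted p was 0.0151 and 0.00819. As it was the lowest wild-type array, its removal had to widen the differences. Without other single arrays the adjusted p reached 0.557 in Mdr2-KO and 0.346 in the double knockout. Centring (0.0321), array quality weights (0.0387) and a filter on dim genes (0.0478) also brought Scap past the threshold in the double knockout.

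The Insig genes, which encode related anchors of Scap, moved in opposite directions in the double knockout. Insig2 read 9.61, 9.41 and 9.95 in wild type, 10.38, 10.57, 10.86, 10.83 and 10.21 in Mdr2-KO, and 10.04, 10.40 and 10.87 (lowest, median and highest) in the double knockout. Every knockout array lay above the highest wild-type array. Insig2 rose by 0.92 (SE 0.18, adjusted p = 0.00282), 1.89-fold, in Mdr2-KO and by 0.77 (SE 0.17, adjusted p = 0.00812), 1.71-fold, in the double knockout. It was the only member called higher in either comparison with wild type. Without wild-type array 2 the adjusted p in the double knockout was 0.0501.

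Insig1, whose transcription is driven by SREBP-2, read 11.41, 11.50 and 11.59 in wild type, 10.98, 11.26, 11.41, 11.35 and 11.52 in Mdr2-KO, and 10.84, 10.93 and 11.27 (lowest, median and highest) in the double knockout. Mdr2-KO overlapped with wild type and the double knockout did not. The difference was -0.20 (95% interval -0.45 to 0.05, adjusted p = 0.231) in Mdr2-KO, and Insig1 fell by 0.50 (SE 0.11, adjusted p = 0.00933), 29.2% lower, in the double knockout. That call was at 0.0505 without wild-type array 3. Between the knockouts the difference was -0.30 (95% interval -0.51 to -0.09, adjusted p = 0.0633), which passed after centring (0.0392), without Mdr2-KO array 1 (0.0293) and without double-knockout array 3 (0.0352). Those arrays were the lowest and the highest of their groups, so both removals had to widen the difference. Without other single arrays the adjusted p reached 0.134.

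Insig1 lies on chromosome 5 with 10 protein-coding genes between it and Il6, so its values in the double knockout carry the same limit for the Il6 allele that those of Cyp51 carry for Abcb4. Upstream of Insig1 (chr5:28071254-28071373, plus strand, 158 to 39 bases before its start) the capitals mark the E-box CACGTG. The stretch ending just before a start of Insig2 (chr1:121332590-121332709, minus strand, 1 of its 3 windows) held CCAAT in both orientations. The full Insig1 window also held CCAAT, outside the stretch printed, so the pair does not differ in that box at this Insig2 start. The further Insig2 windows held no CCAAT, and which start the Insig2 signal comes from was not tested. They are shown because these related genes moved apart.
Insig1: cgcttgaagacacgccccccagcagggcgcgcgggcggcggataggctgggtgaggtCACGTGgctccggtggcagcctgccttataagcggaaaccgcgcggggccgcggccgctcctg
Insig2: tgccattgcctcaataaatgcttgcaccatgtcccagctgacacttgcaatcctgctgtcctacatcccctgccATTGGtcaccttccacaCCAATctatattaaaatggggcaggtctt

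On the liver X receptor side of the list, Nr1h3 and Abca1 passed in no comparison and Mylip in 2 of them. Nr1h3, the receptor LXR-alpha, was at 9.51 ± 0.14, 9.34 ± 0.12 and 9.33 ± 0.21, and Abca1, the cholesterol exporter it induces, at 9.95 ± 0.07, 9.93 ± 0.18 and 9.90 ± 0.06. For Abca1 the 95% intervals of the difference from wild type were -0.20 to 0.17 in Mdr2-KO and -0.22 to 0.14 in the double knockout (adjusted p = 0.929 and 0.823). For Nr1h3 the differences were -0.17 and -0.18 (adjusted p = 0.277 and 0.361).

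Mylip, an LXR-induced ubiquitin ligase that marks lipoprotein receptors for degradation, read 8.09, 8.09 and 8.34 in wild type, 7.82, 7.89, 7.61, 7.64 and 7.95 in Mdr2-KO, and 7.86, 8.07 and 8.25 (lowest, median and highest) in the double knockout. Mdr2-KO lay wholly under wild type, and the double knockout overlapped with both. Mylip fell by 0.39 (SE 0.10, adjusted p = 0.0169), 23.6% lower, in Mdr2-KO, a call at 0.1 without wild-type array 3. The double knockout differed from wild type by -0.09 (adjusted p = 0.632).

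Against Mdr2-KO, Mylip was higher in the double knockout by 0.29 (95% interval 0.11 to 0.48, adjusted p = 0.0467). This Mylip call was lost after quantile normalization (0.0651) and centring (0.0772), without wild-type array 1 (0.0547), without Mdr2-KO array 1 (0.0841), 3 (0.112) or 4 (0.11), and without double-knockout array 1 (0.0538), 2 (0.0865), 4 (0.0855), 5 (0.0955) or 6 (0.0599).

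**Figure D4:**
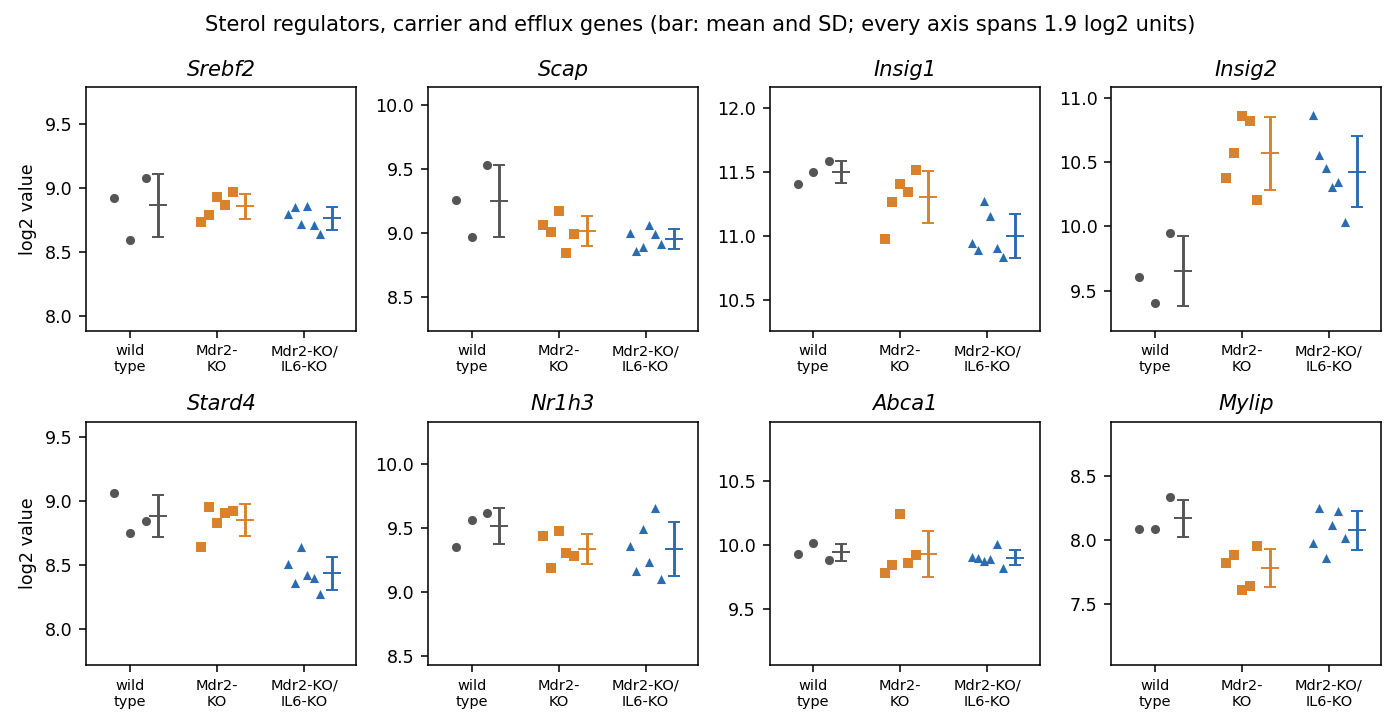
Log2 level on each of the 14 arrays for 8 regulators, carrier and efflux genes, with 1 point per array and the group mean and SD beside the points; every axis spans 1.9 log2 units. Insig2 is higher on all 11 knockout arrays than on any wild-type array, Stard4 is lowest in the double knockout, and Srebf2 and Abca1 overlap in all groups.

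Further lists of sterol genes were read beside the members, and the genes named from them are among those with the largest called changes. Their counts are read against the shares of all genes called lower and higher. These were 12.1% and 8.89% in Mdr2-KO, 5.33% and 6.96% in the double knockout, and 3.72% and 5.04% between the knockouts. A count near these shares is no result about its list. Of 11 further genes listed as sterol-responsive, 5 were lower in each knockout against wild type, with medians of -0.33 and -0.38. Between the knockouts 1, Stard5, was higher. Whether these genes respond to sterols was not tested, and the 5 lower in Mdr2-KO include Stard5. Stard5, a sterol carrier of the same family as Stard4, fell in Mdr2-KO from 10.64 ± 0.13 to 10.05 ± 0.10 (adjusted p = 0.0014) and stood at 10.34 ± 0.18 in the double knockout. The Stard5 call between the knockouts (0.29, adjusted p = 0.0473) was lost after quantile normalization (0.0624) and centring (0.085), without Mdr2-KO array 1 (0.0871), 2 (0.0648), 3 (0.113) or 4 (0.0828), and without double-knockout array 2 (0.0882), 3 (0.0576), 4 (0.0741), 5 (0.0856) or 6 (0.084). Rdh11, a retinol dehydrogenase induced with the pathway, fell by 0.62 in Mdr2-KO (adjusted p = 0.0174, but 0.0899 without wild-type array 1 and 0.0888 without array 3) and by 0.74 in the double knockout (adjusted p = 0.00693, or 0.0537 without wild-type array 1). The fatty acid desaturases Fads1 and Fads2, which make polyunsaturated fatty acids, fell in both knockouts. Fads1 was at 11.95 ± 0.09 in wild type and fell to 11.62 ± 0.06 in Mdr2-KO (adjusted p = 0.0336) and 11.43 ± 0.20 with both deletions (adjusted p = 0.00299). Fads2 was at 12.03 ± 0.02 and fell to 11.65 ± 0.05 (adjusted p = 0.0309) and 11.46 ± 0.24 (adjusted p = 0.00347). For both genes every knockout array lay under the lowest wild-type array, and the knockouts did not pass against each other (adjusted p = 0.157 and 0.197). In Mdr2-KO the Fads1 call was lost without wild-type array 1 (0.0951) or 3 (0.125) or Mdr2-KO array 1 (0.0664), 4 (0.0613) or 5 (0.0514). The Fads2 call there was lost without wild-type array 1 (0.068), 2 (0.0601) or 3 (0.0931) or Mdr2-KO array 1 (0.0582) or 4 (0.0595).

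Of 10 further liver X receptor targets, 4 were lower and 1 higher in Mdr2-KO, and 2 lower and 1 higher in the double knockout, so the list had no single direction. Lpl, lipoprotein lipase, was at 8.26 ± 0.65 in wild type and rose to 9.27 ± 0.22 in Mdr2-KO (adjusted p = 0.00413) and 9.88 ± 0.19 in the double knockout (adjusted p = 0.000136). Adult hepatocytes make little Lpl and macrophages make it, and of 16 macrophage markers 6 were higher and 1 lower in Mdr2-KO (median 0.04) and 7 higher and 1 lower with both deletions (median 0.24). Their mean levels per array were 8.10 to 8.33, 8.25 to 8.72 and 8.54 to 8.76, overlapping between wild type and Mdr2-KO, and their part in the rise was not tested. Pltp, the phospholipid transfer protein of plasma, fell from 10.04 ± 0.27 to 9.28 ± 0.17 (adjusted p = 0.00121) and 9.26 ± 0.18 (adjusted p = 0.00096). Abcg8, a subunit of the canalicular sterol exporter, fell by 0.60 in the double knockout (adjusted p = 0.0214, but 0.139 without wild-type array 3). It was also called lower in Mdr2-KO, with a difference of -0.55. That call was lost without wild-type array 3 (0.177) or Mdr2-KO array 3 (0.0539) or 4 (0.0622). Array quality weights (0.0637) and a fit of the 2 groups (0.0662) lost it too.

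Of 8 further genes of SREBP processing and sterol degradation machinery, 3 were higher in Mdr2-KO (Usp20, Rnf139 and Erlin2, with adjusted p = 0.02, 0.0218 and 0.0286). Each of these calls was lost without some arrays. Usp20 lost it without wild-type array 2 (0.0605) and Rnf139 without wild-type array 3 (0.132). Erlin2 lost it without wild-type array 1 (0.0584) or 3 (0.169) or Mdr2-KO array 1 (0.0526) or 4 (0.0603). In the double knockout 1 of the 8 was higher and 1 lower. Usp20, a deubiquitinase, rose there from 6.47 ± 0.08 to 7.01 ± 0.17 (0.54, SE 0.09, adjusted p = 0.00149). Of 11 genes of the non-sterol isoprenoid branches, 2 were lower (Coq2 and Trit1) and 1 higher (Pdss2) in Mdr2-KO. The median difference was 0.05. The Trit1 call (-0.32) was at an adjusted p of 0.0505 without wild-type array 3. In the double knockout against wild type limma called 0 of the 11, with 2 at an unadjusted p under 0.05, and between the knockouts 1 was higher and 1 lower. Pdss2, a subunit that builds the ubiquinone tail, rose from 6.79 ± 0.19 to 7.27 ± 0.08 in Mdr2-KO (adjusted p = 0.00186). In the double knockout Pdss2 was at 6.97 ± 0.11, lower than in Mdr2-KO by a difference of -0.30 (adjusted p = 0.0217, but 0.0576 without Mdr2-KO array 4). Coq2, which attaches that tail, went the other way: it was at 8.37 ± 0.14 in wild type and fell to 8.09 ± 0.10 in Mdr2-KO (adjusted p = 0.0331). That Coq2 call was lost without wild-type array 1 (0.127) or 2 (0.0766), without Mdr2-KO array 1 (0.0653) or 3 (0.0648), and in a fit of the 2 groups (0.0541). In the double knockout Coq2 was at 8.46 ± 0.13, higher than in Mdr2-KO (adjusted p = 0.00676) and overlapping with wild type (0.10, adjusted p = 0.544).

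Of 14 genes of sterol trafficking and ester hydrolysis, 3 were lower and 2 higher in Mdr2-KO, and 4 lower and 3 higher in the double knockout, with medians near 0 (0.01 and -0.01). Scarb1, the receptor that takes up cholesterol from HDL, was at 9.58 ± 0.24 in wild type and rose to 10.23 ± 0.09 in Mdr2-KO (adjusted p = 0.000855) and 10.24 ± 0.14 in the double knockout (adjusted p = 0.000634). The cholesteryl ester hydrolase Nceh1 fell in Mdr2-KO from 9.82 ± 0.32 to 8.92 ± 0.26 (adjusted p = 0.00221). Nceh1 was also called lower in the double knockout, a call lost without wild-type array 3 (0.0732). Its difference there ran from -0.877 to -0.557 over the fits without 1 array. Ces1d, a carboxylesterase of stored lipid, fell from 11.70 ± 0.08 to 10.98 ± 0.35 in Mdr2-KO (adjusted p = 0.00522). Npc2, the lysosomal cholesterol carrier, rose from 8.32 ± 0.08 in Mdr2-KO to 8.62 ± 0.05 in the double knockout (adjusted p = 0.00653).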

How the data were processed

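The deposited log2 expression values of 14 arrays were used as the authors gave them: per the submitters' processing notes they were made with RMA in Partek, with versions, probe filters, genome build and pooling not given in the sources used here. Of 35557 probes, 21789 carried 1 gene name, 1621 several and 12147 none; 999 genes had more than 1 probe, and the probe with the highest mean was kept. Current symbols came through the gene identifier for 21698 probes. Values ran from 1.47 to 13.6 and array medians from 6.15 to 6.24. The number of arrays limits the precision.

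Group means were fitted in limma 3.58.1 (R 4.3.3) over all 14 arrays and 19938 genes with 11 residual degrees of freedom, and every adjusted p is limma's with Benjamini-Hochberg adjustment over all genes, called under 0.05. Errors after ± are SD over arrays, and percent differences come from the log2 difference. The script was tested on simulated data. Members and gene lists were chosen with earlier results of these data known. Genes of the other lists come from the 3 largest called changes at most per list and comparison; among these, calls that lasted without any single array were mostly chosen, after their values were seen, as were Fads1 and Fads2 in Mdr2-KO. Alternatives were quantile normalization, median centring, a filter on dim genes, other probe rules, moderation and weights, 2-group fits, a fold limit of 1.5 and leaving out arrays. Promoter sequences are from RefSeq, GRCm38.p6.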

Additional observations from a re-analysis of the deposited data

How the results depend on the processing

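No paired analysis was possible because the groups share no replicate numbers in the labels. With 1 array left out in turn, the count of lower members ranged against wild type from 5 to 14 in Mdr2-KO, from 9 to 16 in the double knockout (Mdr2-KO/IL6-KO), and from 2 to 5 between the knockouts. The count of higher members was 1 throughout in the first, and 0 to 1 in the second and the third. With a fold change of at least 1.5 required, 4, 5 and 0 members were lower and, between the knockouts, 0 higher. That last count was also 0 after quantile normalization, after centring and without both wild-type array 2 and Mdr2-KO array 3. Of the called members, 5 of 11, 8 of 15 and 2 of 4 kept their call in every fit without 1 array.

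The sign turned only for small differences that passed no test. Over the fits without 1 array, Mdr2-KO minus wild type ran from -0.242 to 0.0914 for Pmvk, -0.128 to 0.00194 for Ebp, -0.103 to 0.0554 for Stard4, -0.142 to 0.0966 for Srebf2 and -0.0902 to 0.0246 for Abca1 (0.0306 after quantile normalization). Dhcr7 was at -0.00139 without wild-type array 2 and Mdr2-KO array 3. For Srebf2, the double knockout minus wild type ran from -0.236 to 0.00304. Between the knockouts Fdps ran from -0.0369 to 0.0485 (-0.0404 after centring), Sqle from -0.158 to 0.0515, Nr1h3 from -0.0675 to 0.0435 and Abca1 from -0.0665 to 0.0483. Without both arrays the last 3 were 0.0515, 0.0319 and 0.0483, and Nr1h3 was 0.00329 after quantile normalization and 0.0152 with array weights. The cause of these changes was not tested beyond the arrays left out. With 3 wild-type arrays, differences of about 0.2 could not be told from 0 for most members.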
